A study of Homo sapiens with 20 samples.

Results

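Chromosome 6 carried 31348 of the 572000 anchor pairs found in at least 1 of 4 Hi-C loop lists, and their strengths were followed along its length here. H4 and 42MGBA are human glioblastoma (GBM) cell lines with a naturally occurring truncating mutation of STAG2, labelled STAG2-mutant. Their gene-edited derivatives with a corrected STAG2, H4 88-1 for the former and 42MGBA 53-1 for the latter, are labelled STAG2-WT. There was 1 corrected derivative per line, so that the effect of correction cannot be told apart from other differences between a parental line and its derivative. Each list held the 300000 strongest pairs of 5 kb anchors in a cell line, with the Hi-C signal between both anchors after bias correction and enhancement, here called the loop strength. The authors had pooled 2 replicates into each list, so that no difference between cell lines below has a replicate check and no test was made. The chromosome was selected on these loop strengths with earlier results known, and the ratios below are a description of it.

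All anchor pairs on chromosome 6 were taken as members. For each pair of cell lines, the ratio was the log2 of the STAG2-corrected over the STAG2-mutant strength, for members listed in at least 1 line of the pair, and where a list lacked a member its minimum was filled in. The minimum was 4.14 for H4 and 4.44 for H4 88-1, and 4.49 for 42MGBA and 4.28 for 42MGBA 53-1, so that the ratio of an absent member is a bound set by the list. Ratios were therefore read against the median over all chromosomes, which was 0.095 for the H4 pair and -0.077 for the 42MGBA pair. Positions are those of the hg19 build, and windows are fixed stretches of 5 Mb that hold the start of a member's first anchor.

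Cohesin is a ring-shaped protein complex that extrudes loops of chromatin, and extrusion is commonly halted where the DNA-binding protein CTCF sits on its motif. STAG2 and its paralog STAG1 are alternative subunits of the ring. Loops bring enhancers close to promoters and hold stretches of chromatin together. The short arm of chromosome 6 carries the largest cluster of histone genes and the major histocompatibility complex, and both arms carry genes of developmental transcription factors and signalling proteins.

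The CTCF motif was searched as its core CCANNAGNNGGC, on both strands, in all 7441 anchors of chromosome 6, of which 14.8% held a match, against 16.1% of the 128561 anchors of the genome. Shown here are the matches in the anchor pairs with the largest ratio, among those listed in both lines, in the 3 windows with the highest H4 pair medians. The core is in capitals, with 20 bases on each side, read 5′ to 3′ on the strand of the match. None of these matches lay in a protein-coding gene.
Upstream of NT5E, chr6:86064914-86064965, plus strand: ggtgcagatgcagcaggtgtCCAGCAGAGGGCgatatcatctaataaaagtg
Upstream of NT5E, chr6:86065997-86066048, plus strand: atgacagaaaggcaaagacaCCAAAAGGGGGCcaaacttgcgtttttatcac
Paired with an anchor at PSMB1, chr6:170199585-170199636, plus strand: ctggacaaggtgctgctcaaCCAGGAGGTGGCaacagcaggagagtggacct
Window from 155 Mb, first anchor, chr6:155650852-155650903, minus strand: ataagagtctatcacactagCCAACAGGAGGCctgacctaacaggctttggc
Window from 155 Mb, second anchor, chr6:155815369-155815420, plus strand: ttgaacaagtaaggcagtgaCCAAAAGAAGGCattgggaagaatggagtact
The pair upstream of NT5E joined chr6:86062378-86066537 to chr6:86172077-86176955 inside this gene, which encodes an enzyme that makes adenosine outside the cell. H4 had a strength of 4.31 there and H4 88-1 one of 7.45, whereas 42MGBA had 8.63 and 42MGBA 53-1 had 5.54. The corrected line was thus the higher one in the H4 pair and the lower one in the 42MGBA pair. The pair with an anchor in PSMB1, a proteasome subunit gene, joined chr6:170196769-170201185 to chr6:170840391-170845265, with 4.23 in H4 and 6.78 in H4 88-1, but 6.66 in 42MGBA against 5.38 in 42MGBA 53-1. The pair from 155 Mb joined chr6:155649671-155654628 to chr6:155815114-155820008, with strengths of 4.28 (H4) and 8.06 (H4 88-1), and was listed in neither 42MGBA line. Its cores were on the minus strand at the first anchor and on the plus strand at the second, which is the divergent and not the convergent order. The anchors of the corresponding pairs in the 3 lowest windows of the H4 pair, and in the lowest and highest windows of the 42MGBA pair, held no match in these letters.

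H4 listed 17592 members, H4 88-1 16352, 42MGBA 18709 and 42MGBA 53-1 12663. These were 5.86%, 5.45%, 6.24% and 4.22% of each list, so that 42MGBA 53-1 had the smallest share and its own parental line the largest. Of the members, 13444 were in 1 list, 7506 in 2, 4732 in 3 and 5666 in all 4. Members listed in both STAG2-mutant lines and in neither corrected line numbered 827, or 2.64% of members, while such pairs were 1.57% of those of the genome. The opposite kind, listed in both corrected lines only, numbered 206, or 0.657% of members against 1.33% in the genome. The 4 lists also differed in where on the chromosome their members lay. The first 60 Mb, which is nearly the whole short arm, held 66.4% of the members in H4 and 66.6% in H4 88-1, but 44.8% in 42MGBA and 47.5% in 42MGBA 53-1.

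Chromosome 6 had a median ratio of -0.18 in the 42MGBA pair, the second lowest of 23 chromosomes, and 81.9% of its members had a ratio under 0. Members listed in 42MGBA only are under 0 by the filled minimum. Only chromosome 11 had a lower median, at -0.22, and the other chromosomes reached up to -0.004, with an SD of 0.053 between chromosomes. The number of listed pairs moved with the median. For each pair listed on chromosome 6 in 42MGBA, the 42MGBA 53-1 list held 0.677, again the second lowest value after chromosome 11 with 0.586, and the highest on another chromosome was 1.36. The corresponding median of the H4 pair was 0.071, the fourth lowest of 23, with 37.3% of members under 0. The distance of 0.024 to the genome median was within the SD of 0.046 between chromosomes there, and 0.929 pairs were listed in H4 88-1 for each in H4.

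**Figure D1:**
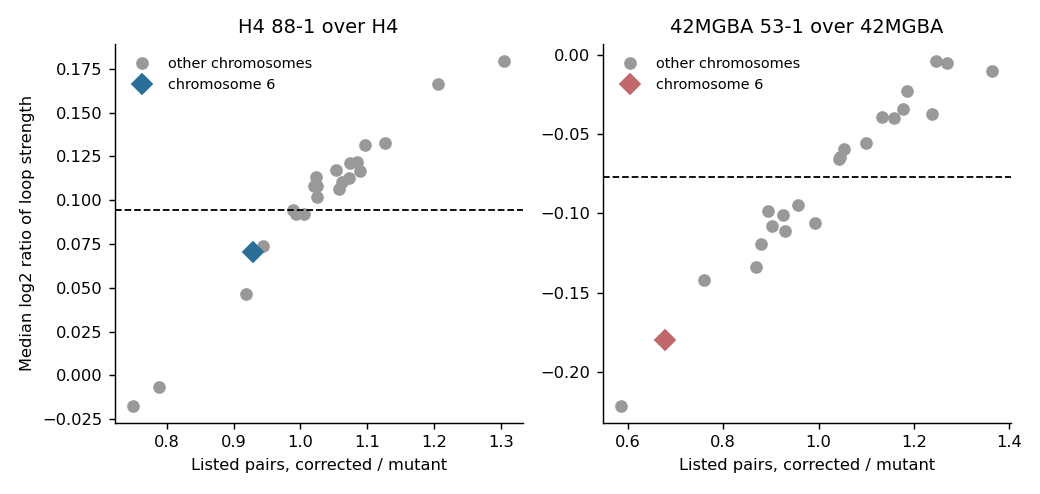
Each point is a chromosome, with the number of listed anchor pairs in the corrected line over that in the mutant line on the x axis and the median log2 ratio of loop strength on the y axis; the dashed line is the genome median. The axes differ between panels. Chromosome 6 (diamond) lies at 0.929 and 0.071 in the H4 pair, and at 0.677 and -0.18, next to the lowest point, in the 42MGBA pair. Absent pairs enter the median at the list's lowest strength, so the 2 axes are not independent.

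Single anchor pairs were counted when the ratio differed from the genome median by 1.5-fold or more. Of the 42MGBA pair's 21837 members, 1060, or 4.85%, were lower by this measure in the corrected line, where 2.07% of all anchor pairs of the genome were. Only 61, or 0.279%, were higher, against 0.993% in the genome. Of the H4 pair's, 376 of 21758, or 1.73%, were lower, close to the background of 1.55%. The 169 higher members, or 0.777%, were fewer than the background of 1.4% would give.

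The lower ratio in the 42MGBA pair lay along nearly the whole chromosome. Of 32 windows with at least 50 members, 30 had a median under the genome median, where 48.2% of the 475 windows on other chromosomes did. Relative to anchor pairs of the same distance 30 of 32 windows were under it as well, and with pairs absent from both lines included 20 of 33. The short arm up to 60 Mb had a median of -0.16 and the long arm from 65 Mb to the end one of -0.20. With a cut of 0.2 below the genome median, 5 windows were lower and 0 were higher, while 3.35% of the windows of the genome were lower and 0.986% higher. Relative to pairs of the same distance, 1 window passed this cut. The 5 lower windows started at 85 Mb with a median of -0.34, at 60 Mb with -0.30, at 90 Mb with -0.30, at 130 Mb with -0.28 and at 20 Mb with -0.28. Of these, the window from 130 Mb held the most members: 1614 were listed in 42MGBA and 957 in 42MGBA 53-1. The window from 60 Mb, at the centromere, had 50 members in 42MGBA and 0 in 42MGBA 53-1, so that its median was set by the lowest strength of that list.

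The 2 windows above the genome median in the 42MGBA pair started at 75 Mb, with a median of 0.014, and at 45 Mb, with -0.036. In the former, 457 members were listed in 42MGBA and 442 in 42MGBA 53-1. In the latter, 387 were listed in 42MGBA and 478 in 42MGBA 53-1, the largest excess in the corrected line of any window. The window from 125 Mb had a median of -0.079, at the genome median. By number of listed members, 30 of 32 windows held fewer in 42MGBA 53-1 than in 42MGBA. Absent members enter the medians at the list's lowest strength, so that these counts are not separate support for the medians. The share of such windows on other chromosomes was not counted.

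Windows of the H4 pair lay on both sides of the genome median, with 17 of 32 under it, where 47.9% of the 497 windows on other chromosomes were. By the cut of 0.2, 2 windows were lower and 0 higher, against 3.02% and 1.13% of the windows of the genome. The 2 lower windows started at 75 Mb, with a median of -0.15, and at 60 Mb, with -0.11, and the window from 55 Mb followed, with -0.11 and a difference to the genome median of -0.1996 that fell just short of the cut. The window from 55 Mb held 1593 members in H4, more than any other window of the chromosome in that line, and 941 in H4 88-1. The highest medians were 0.28 in the window from 85 Mb, 0.23 in the last window from 170 Mb and 0.17 in the window from 155 Mb. These held few members: 40 in H4 and 83 in H4 88-1 from 85 Mb, 19 and 57 from 170 Mb, and 205 and 308 from 155 Mb.

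Read along the chromosome, the H4 pair went from a stretch above the genome median to a low stretch around the centromere, and then to values just under the genome median. The first 50 Mb had a median of 0.11, the stretch from 50 to 65 Mb one of -0.065, that from 65 to 85 Mb one of -0.031 and the rest one of 0.082. The borders of these stretches were chosen after the profile was seen. The same stretches of the 42MGBA pair had medians of -0.16, -0.16, -0.17 and -0.20. The low stretch of the H4 pair was therefore not visible there.

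The loops with the most extreme ratio in these windows, among those listed in both lines of a pair, differed by up to 1.92-fold. In the window from 55 Mb of the H4 pair, a loop of 1019 kb joined chr6:55138454-55143274 in HCRTR2, an orexin receptor gene, to chr6:56157216-56161984 in COL21A1, a collagen gene, with 10.3 in H4 and 5.33 in H4 88-1. In the window from 60 Mb a loop joined chr6:64056637-64061469 to chr6:64497613-64502588 in EYS, a photoreceptor gene, with 8.90 in H4 and 4.71 in H4 88-1. Neither of these was listed in a 42MGBA line. The 42MGBA pair's lowest loop in the window from 90 Mb joined chr6:90658167-90663173 in BACH2, a lymphocyte transcription factor gene, to chr6:91113913-91118740, with 8.12 in 42MGBA and 4.36 in 42MGBA 53-1, and H4 had 5.18. At NT5E, in the window from 85 Mb, it joined chr6:86071271-86076241 to a transcript start within the gene at chr6:86181865-86186590, with 7.87 in 42MGBA and 4.60 in 42MGBA 53-1, against 5.47 in H4 and 6.15 in H4 88-1. Among loops with the highest ratio in the 42MGBA pair, the one in the window from 45 Mb reached CLIC5, which encodes a chloride channel protein, with 4.56 in 42MGBA and 6.61 in 42MGBA 53-1. The window from 60 Mb of the 42MGBA pair had no loop listed in both lines.

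**Figure D2:**
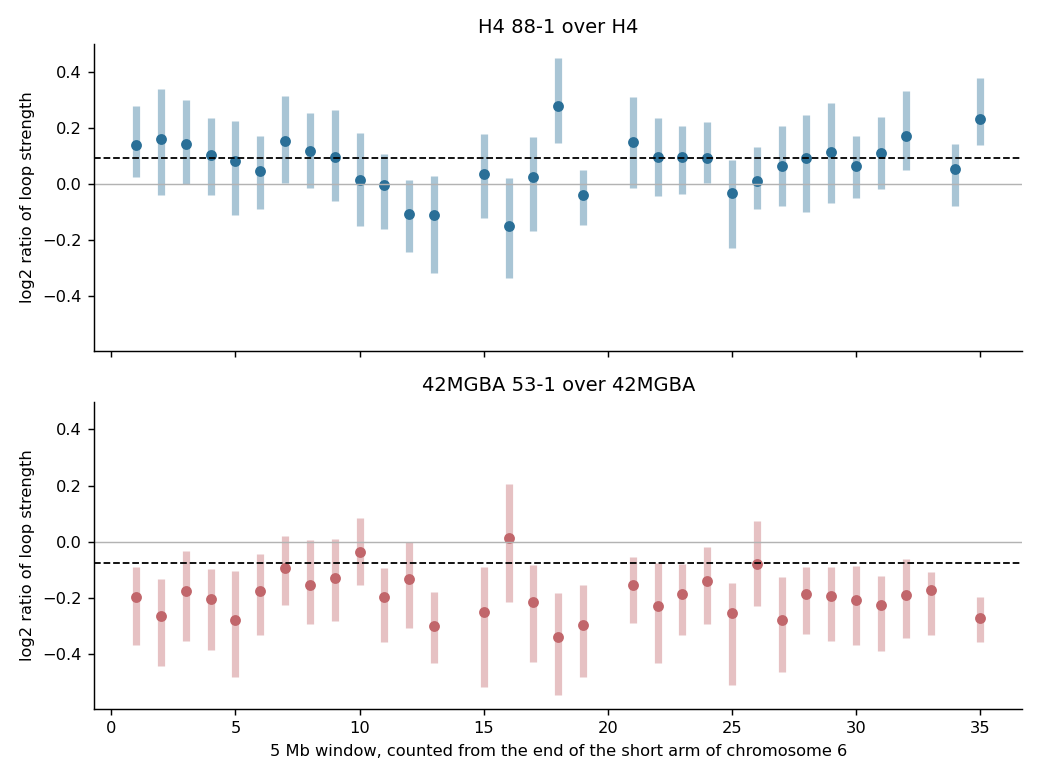
Points are the median log2 ratio of corrected over mutant loop strength in each 5 Mb window with at least 50 members, bars run from the lower to the upper quartile, and the dashed line is the genome median of each pair. In the H4 pair windows 12, 13 and 16 (from 55, 60 and 75 Mb) lie lowest and window 18 (from 85 Mb) highest; in the 42MGBA pair 30 of 32 windows lie under the line and window 18 is the lowest.

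Window 18 in that plot, from 85 to 90 Mb, was the highest in the H4 pair and the lowest in the 42MGBA pair. It held 121 members, and the gene with the most anchors there was NT5E. Over the 31 windows measured in both pairs, Pearson's r between the medians was -0.30 and Spearman's coefficient -0.073, given as a description, since windows share their libraries and base composition. The sign of r was not stable: it was 0.40 with a single anchor pair kept per square of 50 kb, 0.20 with windows shifted by 2.5 Mb and 0.034 with windows of 10 Mb. With squares only 9 windows of the H4 pair were measured, and with windows of 10 Mb 18 in each pair. Of the 31 windows, both pairs lay under the genome median in 14, both above in 0, and on opposite sides in 17.

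**Figure D3:**
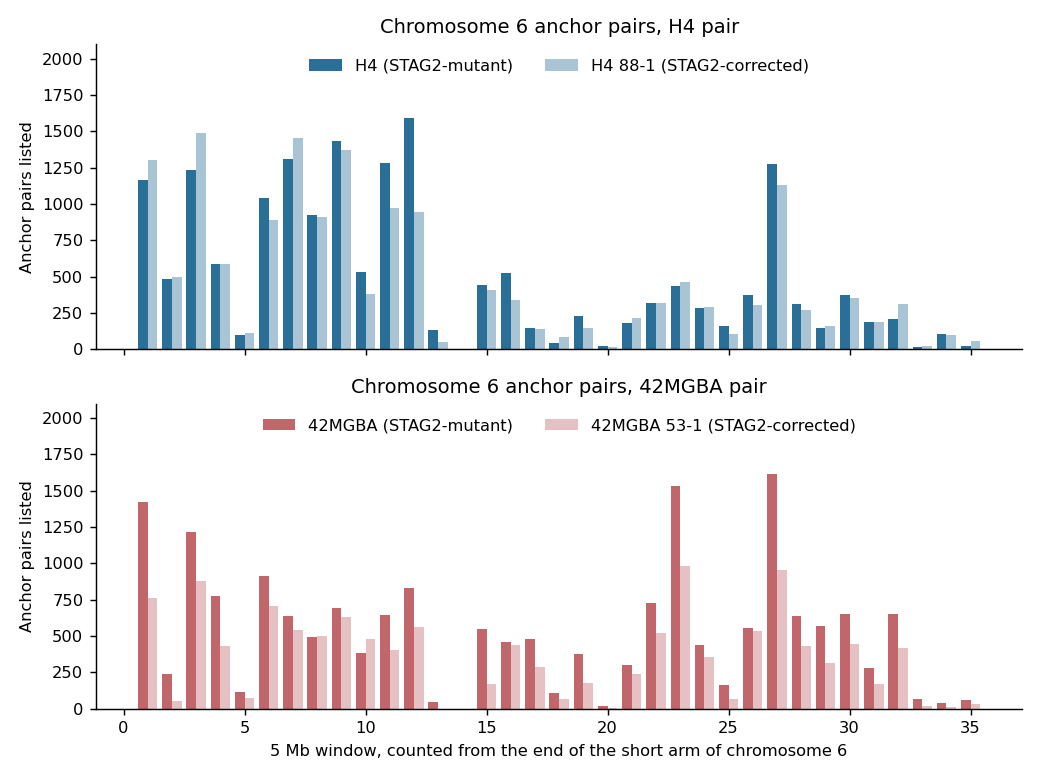
Bars give the number of anchor pairs listed in each cell line in each 5 Mb window of chromosome 6. Bars of 42MGBA 53-1 are lower than those of 42MGBA in most windows, with window 10 (from 45 Mb) the clearest exception, while H4 exceeds H4 88-1 most in window 12 (from 55 Mb).

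The distance between anchors separated chromosome 6 from the other chromosomes in the 42MGBA pair. Below 100 kb its median ratio was -0.0061 and that of the other chromosomes -0.0005. From 200 to 400 kb it was -0.20 against -0.071, and from 400 to 800 kb -0.28 against -0.14. From 800 kb on, with 797 members, it was -0.27 against -0.18. The difference of -0.087 was smaller there than the -0.15 from 400 to 800 kb. Counts moved likewise: of members below 100 kb, 1507 were listed in 42MGBA and 2181 in 42MGBA 53-1, while from 400 to 800 kb 6465 were listed in 42MGBA and 2668 in 42MGBA 53-1. The opposite change in number between short and long loops was also seen on the other chromosomes, with 1.54 listed pairs in the corrected line for each in the mutant line below 100 kb and 0.824 from 400 to 800 kb, where chromosome 6 had 1.45 and 0.413. With members listed in both lines only, which removes the filled values, chromosome 6 was higher than the others by 0.039 below 100 kb and lower by a difference of -0.15 from 200 to 400 kb, -0.21 from 400 to 800 kb and -0.30 from 800 kb on. The last of these rested on 132 members.

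**Figure D4:**
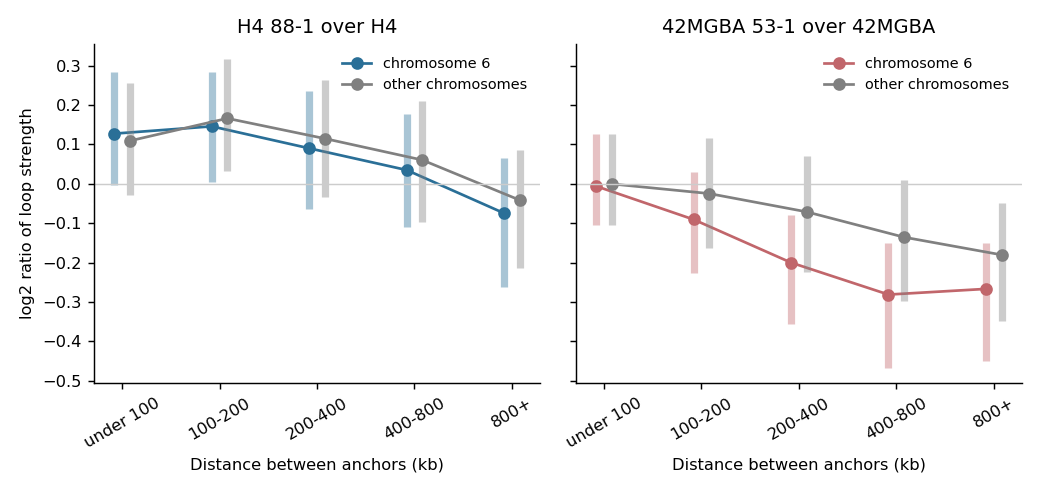
Points are the median log2 ratio of loop strength by distance between anchors, with bars from the lower to the upper quartile, for chromosome 6 and for all other chromosomes. In the 42MGBA pair the chromosome 6 points run from -0.0061 below 100 kb to -0.28 from 400 to 800 kb. Above 200 kb they lie apart from the grey points, with overlapping bars. In the H4 pair both lines lie closer together.

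Chromosome 6 of the H4 pair lay nearer to the other chromosomes, with differences between 0.018 below 100 kb and -0.033 from 800 kb on. With members listed in both lines only, these differences were 0.051 and -0.079. Both groups of chromosomes went down with distance there, and on chromosome 6 the median was 0.15 from 100 to 200 kb and -0.075 from 800 kb on. The median distance between the anchors of listed members was 356 kb in H4 against 321 kb in H4 88-1, and 323 kb in 42MGBA against 241 kb in 42MGBA 53-1. The difference of 35.2 kb in the H4 pair and of 81.8 kb in the 42MGBA pair had the same sign, and on other chromosomes of the 42MGBA pair it ran from 14.5 to 97.3 kb. Across the 32 windows of the 42MGBA pair, Pearson's r between the median ratio and the median distance was -0.55 and Spearman's coefficient -0.54. For the H4 pair r was -0.096.

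Ratios were also read by strength. Anchor pairs of the genome listed in both lines were put into 4 classes of equal size by mean strength, and the members among them had medians of -0.11, -0.21, -0.25 and -0.31 from the weakest to the strongest class. The other chromosomes went from -0.064 to -0.11 over the same classes. Since both strengths had to exceed the minimum of their list, the weakest class cannot hold large ratios, and this part of the trend is fixed by the lists. For the H4 pair, chromosome 6 went from 0.086 to 0.043 and the other chromosomes from 0.096 to 0.071.

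The strongest member in both H4 lines joined the start of VEGFA, which encodes the main growth factor of blood vessels, at chr6:43734547-43739298 to an anchor outside protein-coding genes at chr6:44039717-44044352. H4 and H4 88-1 gave it strengths of 25.5 and 25.9, while 42MGBA gave 21.3 and 42MGBA 53-1 gave 16.0. The value was thus nearly the same in both H4 lines and lower in 42MGBA 53-1 than in its parental line. The strongest member in both 42MGBA lines lay between chr6:100560551-100565378 and chr6:100926519-100931495, on both sides of SIM1. Its strengths were 15.5 and 15.3 in the 2 H4 lines, 22.4 in 42MGBA and 17.6 in 42MGBA 53-1. Among the strongest members of each window that were listed in all 4 lines, the one in DSE, a gene of dermatan sulfate synthesis, had strengths of 10.6 (H4), 10.9 (H4 88-1), 15.0 (42MGBA) and 7.97 (42MGBA 53-1). The one that reached UTRN, which encodes the dystrophin relative utrophin, had 7.70, 8.99, 13.7 and 7.20 in this order. In both cases 42MGBA had the highest of the 4 values. Both were picked after their values were seen, with the lowest 42MGBA pair ratios among these members, -0.91 and -0.93. The strongest members at EDN1 and TNFRSF21 went the other way in that pair, with 0.0765 and 0.23.

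Genes were assigned when an anchor lay within 3 kb of a transcript start, and the gene with the most members in each window was named as its leading gene. Of the 1048 protein-coding genes of the chromosome, 564 had a member, which is the background for the gene lists below. Of 30 leading genes with at least 5 members in the 42MGBA pair, 25 had a median under the genome median, and 18 of 30 did for the H4 pair. Over all protein-coding genes of the chromosome with at least 5 members, 66.8% of 355 genes in the 42MGBA pair and 54.8% of 363 in the H4 pair were under it.

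Genes of transcription factors, which bind DNA and set cell fates, held some of the largest differences. SOX4 (chr6:21593982-21598850), a factor of progenitor cells, had 23 members in H4 and 16 in H4 88-1, and 23 in 42MGBA and 4 in 42MGBA 53-1. Its medians were -0.089 (H4 pair) and -0.50 (42MGBA pair). Most of its values in 42MGBA 53-1 were filled, so that the latter median is a bound. Relative to pairs of the same distance it was -0.33. TFAP2A (chr6:10393419-10419892), a factor of neural crest and skin, had 117, 38, 28 and 0 members in the same order of lines, and medians of -0.15 and -0.28. It was thus under the genome median in both pairs, and the median distance of its anchor pairs, 922 kb, was the second longest of the leading genes. FOXO3, a factor of stress responses, had 16, 7, 82 and 43 members, with a 42MGBA pair median of -0.30.

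Other factors lay above the genome median in the H4 pair and under it in the 42MGBA pair. FOXF2, a forkhead factor of mesenchyme, had 48 members in H4 against 75 in H4 88-1, with a median of 0.29. Its members in 42MGBA numbered 118 against 53 in 42MGBA 53-1, with a median of -0.27. FOXP4, another forkhead factor, had medians of 0.33 and -0.27, and TFEB, which drives lysosome genes, 0.29 and -0.49. HIVEP1, a zinc finger factor, had 16 members in H4 and 41 in H4 88-1, with a median of 0.35, and its median in the 42MGBA pair was -0.14. SIM1, a factor of hypothalamic neurons, had 0.23 and -0.054 and was thus above the genome median in both pairs. HIVEP2 had no member in the H4 lines, 23 in 42MGBA and 50 in 42MGBA 53-1, although its median of -0.011 was near 0. Of 35 transcription factor genes listed for this comparison, 24 had a member. Of those in the 42MGBA pair, 21 of 22 had a median under 0, with a median over genes of -0.24, beside 80.2% of 460 genes and -0.13 over all genes of the chromosome. Of those in the H4 pair, 8 of 20 were under 0, with a median of 0.036, beside 28% of 486 genes and 0.081. Under the genome median were 19 of 22 in the 42MGBA pair and 13 of 20 in the H4 pair. Of genes of the chromosome with at least 5 members, 66.8% and 54.8% were.

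Among ligands, receptors and signalling genes, 15 of 20 had a member. Their medians in the 42MGBA pair were under 0 in 11 of 14 genes, with a median of -0.21, and in the H4 pair in 2 of 14, with 0.12. The former count is near the 80.2% of 460 genes under 0 over the whole chromosome, and for the H4 pair that share was 28% of 486. Under the genome median were 11 of 14 in the 42MGBA pair and 5 of 14 in the H4 pair. Of genes of the chromosome with at least 5 members, 66.8% and 54.8% were. GJA1 (chr6:121756741-121770873), the connexin of astrocyte gap junctions, had 40 members in H4 and 45 in H4 88-1, but 80 in 42MGBA against 30 in 42MGBA 53-1, and medians of 0.087 and -0.43. SGK1 (chr6:134490386-134639250), a kinase induced by glucocorticoids, had 120, 91, 168 and 94 members, and medians of -0.050 and -0.43. All 80 members of GJA1 and 166 of 169 of SGK1 in the 42MGBA pair had a ratio under 0, beside 81.9% of members of the chromosome. A member absent from 42MGBA 53-1 is under 0 by the filled minimum, so that these counts are partly fixed by the lists. BMP5, a bone morphogenetic protein, had 34, 17, 13 and 0 members, with medians of -0.11 and -0.44, and its relative BMP6 had 33, 34, 27 and 23, with 0.11 and -0.24. MARCKS, a substrate of protein kinase C, had 22, 32, 151 and 70 members, with 0.16 and -0.28. EDN1, which encodes the vasoconstrictor endothelin, was among the genes with more members in the corrected line of both pairs, with 79 (H4) and 90 (H4 88-1), and 44 (42MGBA) and 75 (42MGBA 53-1). PTK7, a receptor of planar cell polarity, likewise had 17, 42, 1 and 21, and MAP3K5, a stress kinase, 0, 7, 8 and 23.

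KCNQ5 (chr6:73331520-73908576), a potassium channel gene, had 143 members in H4 and 112 in H4 88-1, and 161 in 42MGBA against 0 in 42MGBA 53-1. The strongest in each list had strengths of 13.8 (H4), 14.1 (H4 88-1) and 15.2 (42MGBA). Its median ratio of -0.47 in the 42MGBA pair is a bound, since every value in the corrected line was filled, and in the H4 pair it was 0.0064. GRM4, a glutamate receptor gene, had 18 members in H4 and 76 in H4 88-1 but 36 in 42MGBA and 2 in 42MGBA 53-1, with medians of 0.33 and -0.28. Of 12 channel, synapse and receptor genes, 4 had a member, beside 564 of 1048 over all protein-coding genes of the chromosome.

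Some genes had at least 10 members in the mutant line and a total absence in the corrected line. They were 15 of the 355 genes with at least 5 members in the 42MGBA pair, and 7 of 363 in the H4 pair. Besides TFAP2A, KCNQ5 and BMP5 the former included OPN5, an opsin gene, TFAP2B, and TCF21, a factor of mesenchymal organs. The reverse, from 0 to at least 10 members, was found for 7 of the 355 genes in the 42MGBA pair and 5 of the 363 in the H4 pair. Of those 7, 6 were histone genes: H2AC8, H3C6, H1-3, H4C7, H3C7 and H2BC9. For all these genes the ratio in the pair concerned is a bound set by filled values. They were singled out after their values were seen.

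The histone cluster, which encodes the proteins that DNA is wound on, thus differed within itself. Of 51 histone genes, 46 had a member, and neighbouring genes often shared an anchor, so that they are not separate observations, and their near-identical sequences make single genes uncertain. All 46 were measured in the 42MGBA pair, and 30 of them had a median under 0, a smaller share than the 80.2% of all 460 genes of the chromosome, with a median of -0.11 and a range from -0.35 to 0.35. At the low end were H2BC12 and H2AC12, which share 33 members in 42MGBA and 11 in 42MGBA 53-1 with a median distance of 659 kb. At the high end was H4C7, which had 0 members in 42MGBA, H4 and H4 88-1 and 14 in 42MGBA 53-1, with a median distance of 12.1 kb and a strongest value of 6.83. H3C6 likewise had 26 members in 42MGBA 53-1 and 0 in the other 3 lines, with a median distance of 33.9 kb. Other histone genes with short loops went the opposite way, such as H1-5, with a median distance of 28.8 kb, 18 members in 42MGBA and 11 in 42MGBA 53-1, and H3C11 and H4C13, with 33.7 kb, 12 and 5. Of the H4 pair's histone genes, 27 of 36 had a median under 0, with a median of -0.053, beside 28% of all 486 genes of the chromosome and 0.081. Under the genome median were 30 of 46 in the 42MGBA pair and 34 of 36 in the H4 pair. Of genes of the chromosome with at least 5 members, 66.8% and 54.8% were.

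The genes of the major histocompatibility complex, which present peptides to T cells, were listed mostly in the H4 lines. Of 19, 15 had a member in the H4 pair but 7 in the 42MGBA pair. Their median was 0.084 in the H4 pair, where 4 of 15 were under 0, and -0.016 in the 42MGBA pair, where 4 of 7 were. Over all genes of the chromosome, 28% of 486 in the H4 pair were under 0, with a median of 0.081, and 80.2% of 460 in the 42MGBA pair, with -0.13, so that the H4 values were those of the chromosome. Under the genome median were 9 of 15 in the H4 pair and 3 of 7 in the 42MGBA pair. Of genes of the chromosome with at least 5 members, 54.8% and 66.8% were. HLA-DMA and HLA-DMB, which load peptides onto class II molecules, had medians of 0.25 and 0.26 in the H4 pair, with 22 and 21 members in H4 and 40 and 26 in H4 88-1. The 42MGBA lines had 3 and 1 in 42MGBA and 12 and 20 in 42MGBA 53-1. Genes of this family are close copies of each other, so that values of single members are uncertain. DDR1, a collagen receptor gene and the leading gene of the window from 30 Mb, had 72 members in H4 and 100 in H4 88-1, with a median of 0.26, and 49 and 34 in the 42MGBA lines, with -0.11.

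COL12A1 (chr6:75794042-75915983), a collagen gene of the extracellular matrix, had 529 members, the most of any leading gene. H4 listed 204, H4 88-1 143, 42MGBA 330 and 42MGBA 53-1 291 of them, with medians of -0.037 and 0.041. With a single anchor pair kept per square of 50 kb, the latter was -0.22 and thus under the genome median. It lay in the window from 75 Mb, which was the lowest in the H4 pair and the highest in the 42MGBA pair. In that window the largest ratio in the 42MGBA pair belonged to a loop of 72.0 kb within COL12A1, from chr6:75836860-75841659 to its start at chr6:75909035-75913556, with 5.14 in 42MGBA and 8.52 in 42MGBA 53-1. The lowest in the H4 pair joined chr6:75923476-75928473 to chr6:76238021-76243028, outside protein-coding genes, with 8.49 in H4 and 4.70 in H4 88-1. Neither was listed in the other pair of lines. Of 8 extracellular matrix genes, 5 had a member. LAMA4, a laminin gene, had 64, 61, 175 and 149 members and medians of 0.060 and -0.16.

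**Figure D5:**
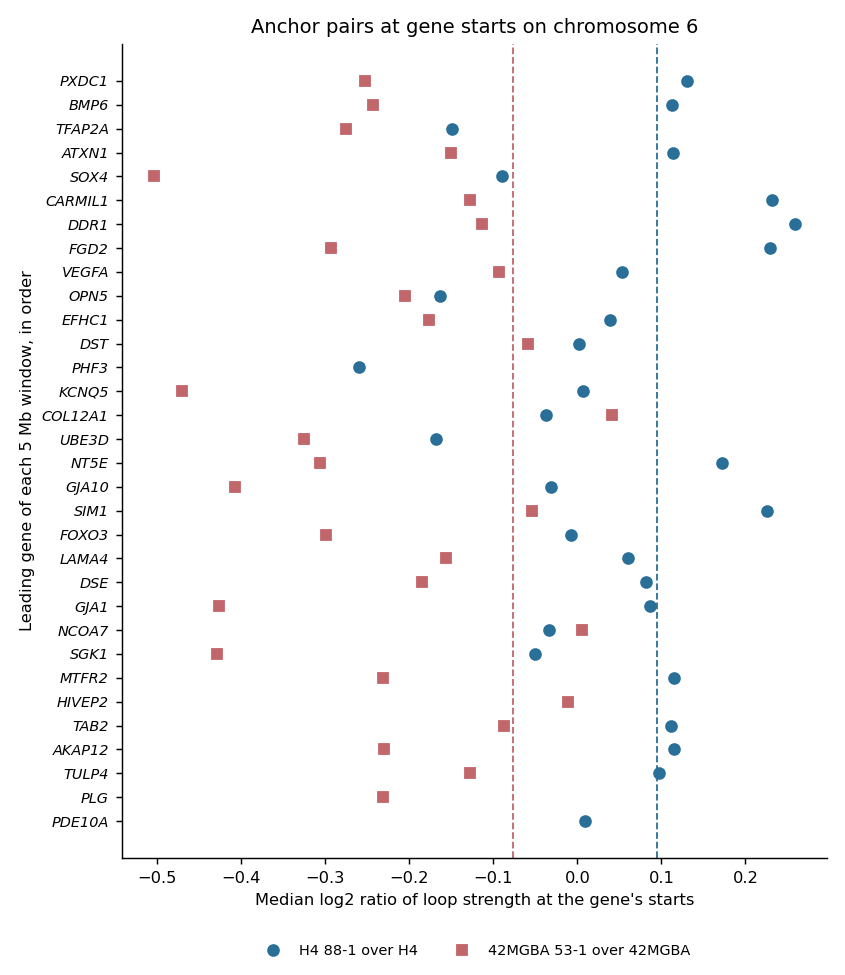
Points are the median log2 ratio over the anchor pairs at the starts of each leading gene, for pairs of lines with at least 5 of them; dashed lines are the genome medians, with the H4 pair in blue and the 42MGBA pair in red. SOX4 (-0.50), KCNQ5 (-0.47), SGK1 and GJA1 (both -0.43) lie farthest to the left in the 42MGBA pair, and COL12A1 (0.041) is the rightmost there; DDR1 (0.26) is the rightmost in the H4 pair.

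Of 11 genes named for their part in glioma and other tumours, 7 had a member. Their medians were 0.039 over 5 genes in the H4 pair and -0.074 over 7 in the 42MGBA pair. All genes of the chromosome had 0.081 and -0.13. The value of -0.074 was that of QKI, which had 1 member. PIM1, a kinase gene, had 49, 43, 36 and 44 members, with -0.21 in the 42MGBA pair. CCND3, which encodes a D-type cyclin, had 59, 51, 28 and 32, with 0.046. NT5E (chr6:86159302-86205509) had 19, 26, 33 and 28 members, and medians of 0.17 and -0.31, the same opposite signs as in its loop upstream shown above.

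The selection used neither the CTCF cores nor the gene starts at the anchors. Convergent CTCF cores, plus at the first anchor and minus at the second, were held by 1.66% of members in H4 and 1.87% in H4 88-1, and by 1.66% in 42MGBA and 1.68% in 42MGBA 53-1, near the 1.56% to 1.88% of the whole lists. The 337 members with convergent cores had a 42MGBA pair median of -0.22 and the 14998 without a core at either anchor one of -0.17. On the other chromosomes the convergent pairs were also the lower ones, with -0.11 against -0.066. Members with a gene start at neither anchor had a median of -0.19, those with 1 start -0.17 and those with starts at both anchors -0.11, and their median distances were 320, 267 and 156 kb. Share with gene starts and distance thus moved together, and their separate parts were not tested. For the H4 pair, windows with a higher GC content and more anchors with a core had higher medians, with a Pearson's r of 0.52 and 0.56 over 32 windows. These values were 0.016 and -0.10 for the 42MGBA pair.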

How the data were processed

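Hi-C was performed on 2 replicates of each of 4 cell lines. The authors trimmed reads, aligned them to hg19 with Bowtie, removed duplicates, assigned pairs to 5 kb anchors, corrected bias with HiCorr and enhanced the result with DeepLoop. Each deposited list holds a signal, called loop strength here, for 300000 anchor pairs of a cell line, chosen by the authors as its strongest after pooling the replicates, so that depth and counting error are unknown.

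Here, lists were merged by anchor pair, absent values were set to the lowest of the list, and medians of log2 ratios were taken over windows of 5 Mb with at least 50 members. Windows were counted at 0.2 and anchor pairs at 1.5-fold from the genome median. Chromosomes with fewer than 1000 pairs were not ranked. Named were the leading gene of each window, the most extreme loop of the 3 lowest and 3 highest windows, and 7 gene lists. Genes came from GENCODE release 44, lifted to hg19. The members and lists were chosen with earlier results of these data known. The window procedure was tested on simulated data. Python 3.11.15, numpy 2.4.6, pandas 2.3.3 and matplotlib 3.10.9 were used. The RNA-seq samples were not analysed here.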

Additional observations from a re-analysis of the deposited data

How the results depend on the processing

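No paired analysis was possible because the replicates of each cell line were pooled in the deposited lists, which leaves no replicate to remove in turn.

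The median of chromosome 6 in the 42MGBA pair was negative in every alternative run. Since the genome median of this pair was itself -0.077, the sign alone does not set chromosome 6 apart. It was -0.36 with the 100000 strongest pairs of each line merged, -0.10 after subtracting the genome median, -0.10 after quantile normalization, -0.094 relative to pairs of the same size and -0.075 with pairs absent from both lines included. Its difference to the genome median was -0.10 as reported. This difference was -0.25 with the 100000 strongest merged, -0.12 with only pairs listed in both lines and -0.11 after quantile normalization. With pairs absent from both lines included it was -0.0049. Pairs filled in both lines share a single ratio there, so that chromosome 6 was near the genome. In the H4 pair the median of chromosome 6 was -0.024, -0.023 and -0.020 after subtracting the genome median, quantile normalization and relative to size. Of the windows measured, those under the genome median in the 42MGBA pair numbered 23 of 28 with only pairs listed in both lines, 25 of 28 with the 100000 strongest, 30 of 32 relative to size and 20 of 33 with all pairs of the 4 lists.

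The counts of windows depended on the settings. Lower windows in the H4 pair, 2 as reported, numbered 4 with the 100000 strongest, 5 with a cut of 0.1, 1 with all pairs, quantile normalization, the same size, squares of 50 kb or shifted windows, and 0 without centring, with windows of 10 Mb or a cut of 0.3. In the 42MGBA pair, 5 as reported, they numbered 17 with the 100000 strongest, 14 without centring, 20 with a cut of 0.1, 2 with all pairs, windows of 10 Mb or shifted windows, 1 with the same size or squares, and 0 with a cut of 0.3. Higher windows, 0 as reported, numbered 1 with the 100000 strongest in each pair, and in the H4 pair 2 without centring or with a cut of 0.1.

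Counts of lower and higher anchor pairs in the H4 pair were 215 and 93 with only pairs listed in both lines, 171 and 432 without centring, 43 and 33 with squares, 3354 and 2417 at 1.2-fold and 5 and 0 at 2-fold. In the 42MGBA pair they were 555 and 31, 1681 and 20, 125 and 20, 5810 and 1060, and 75 and 0, and the higher ones 33 relative to size. All of these are raw counts for chromosome 6. Genome shares under the same alternatives were not worked out, so the counts cannot show whether chromosome 6 exceeded the genome there. Some alternatives also kept fewer members: 12186 of 21758 were listed in both H4 lines, and 9535 of 21837 in both 42MGBA lines. The correlation of window medians between pairs was -0.049 with the 100000 strongest, 0.40 with squares, 0.034 with windows of 10 Mb and 0.20 with shifted windows. The value with squares rested on at most 9 windows. Of 378 values of leading genes under 7 alternatives, 21 moved by over 0.2. Subtracting the genome median shifts all values of a pair alike by less than 0.2, so that none could move under it. Changes of sign relative to the genome median were looked for only among values at 0.2 or more from it, and 0 were found. UBE3D in the H4 pair went from -0.17 to 0.10 with all pairs of the 4 lists, which is the genome median there. COL12A1 in the 42MGBA pair, under that size, went from 0.041 to -0.22 with squares. The causes were not tested.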
